A study of Nicotiana tabacum with 12 samples.

Results

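Some tobacco genes were read in every leaf library of the *DcLCYB1* lines and hardly or not at all in the wild type, and others the reverse. These genes were chosen by their raw counts with 1 rule: an identifier had to have at least 10 counts in every library of one side and at most 3 counts in every library of the other, the sides being the 9 libraries of L14, L15, and L16 and the 3 libraries of the wild type. The rule held for 44 of the 35519 listed Nitab identifiers. Of these, 32 (0.0901% of all identifiers) were present in the lines, and 12 (0.0338%) were present in the wild type and nearly or wholly without counts in the lines. Because the counts of lines and wild type chose the identifiers, the difference between the 2 sides is given below as a description and is not tested.

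The plants were *Nicotiana tabacum* cultivar Xanthi NN. L14, L15, and L16 are separate transgenic lines that express *DcLCYB1*, the carrot gene for lycopene β-cyclase, and the wild type carries no transgene. The 3 replicates of each genotype gave 12 libraries of leaf RNA from 5-week-old plants. The growth notes place the lines in the T4 generation and name kanamycin in the germination medium for lines and wild type alike, while the extraction notes name T3 plants. The promoter of the transgene and the transformation events behind the lines are not given in the sources used here. Libraries came from a QuantSeq 3' kit, which reads the polyadenylated end of a transcript.

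Lycopene β-cyclase closes the rings of lycopene to give β-carotene, a pigment of the photosynthetic apparatus and a precursor of hormones such as abscisic acid and strigolactones. Tobacco is an allotetraploid, so most genes exist as similar copies from both parental genomes, and a read that aligns equally well to both copies is set aside. Reads without a unique alignment made up from 19.1% to 21.4% of the listed reads of a library. A count of 0 here means that no uniquely aligned read was counted on that identifier, and does not show that the gene was silent or missing. The deposited counts do not pair identifiers with gene names, and no row of the available RefSeq table names a Nitab identifier, so no function is given to the 44 identifiers and their sequences are not shown. The study's match of tobacco identifiers to Arabidopsis genes was not used here, since the portion of the supplementary tables that was read names genes by Arabidopsis identifiers. For the same reason the leaf label was not checked against marker genes, and neither the carotenoid pathway genes nor the transgene were analysed here.

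A line library held between 13032294 and 22667265 gene counts and a wild type library between 12887911 and 24343174, where replicate 3 was the deepest library of all. A count of 10 corresponds to between 0.441 and 0.767 CPM (the count scaled to the gene counts of its library) in the lines and between 0.411 and 0.776 CPM in the wild type. Reads outside genes made up 34.9% ± 0.483 of the listed reads in L14, 35.7% ± 0.964 in L15, 34.5% ± 1.02 in L16, and 37.1% ± 1.30 in the wild type (SD, n = 3 each). Of the 99 spike-in sequences, only the share of SIRV4 is given here. It made up between 6.34% and 7.77% of spike-in counts in the lines and between 5.19% and 5.38% in the wild type. The part of these differences in the results below was not tested. In leaf RNA, fewer cells that express a gene and less of its RNA per cell cannot be told apart.

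**Figure D1:**
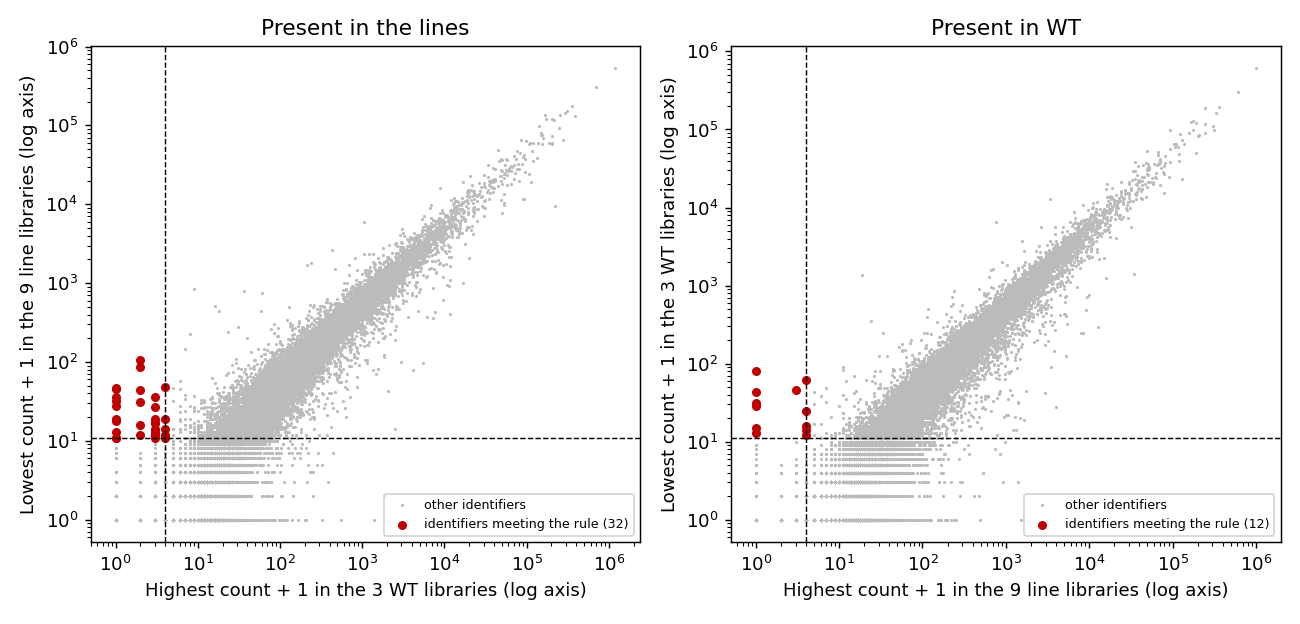
Lowest count plus 1 on one side (vertical, log axis) against the highest count plus 1 on the other (horizontal, log axis) for every Nitab identifier, with lines over wild type on the left and wild type over lines on the right, and dashed lines at the limits of 10 and 3 counts. The 32 and 12 red points are the identifiers that met the rule. The limits themselves place them at or above the horizontal and at or left of the vertical dashed line.

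No identifier told 1 line from the rest under these limits. With the same limits applied to a single line against the other 9 libraries, 0 identifiers were found for L14, 0 for L15, and 0 for L16, in both directions. With a single line set against the wild type alone, the limits gave 53 identifiers present in the line and 24 present in the wild type for L14, 55 and 20 for L15, and 61 and 40 for L16. The 32 identifiers present in all lines were 60.4% of the list of L14, 58.2% of that of L15, and 52.5% of that of L16. The 12 present in the wild type were 50.0%, 60.0%, and 30.0% of the lists of L14, L15, and L16. These 3 comparisons share the wild type libraries. Of the 99 spike-in sequences, 53 had at least 10 counts in all 12 libraries, and 0 met the rule.

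Both groups consisted of rarely read genes. The mean level of the 32 identifiers over the line libraries had a median of 1.97 CPM and ranged from 0.937 to 8.57 CPM, against a median of 8.93 CPM over the 14627 identifiers with at least 10 counts in every line library. The mean wild type level of the 12 others had a median of 2.19 CPM and ranged from 0.878 to 6.75 CPM, against a median of 7.46 CPM over the 15152 identifiers with at least 10 counts in every wild type library. Summed over the 32 identifiers, the level was 97.9 ± 5.26 CPM in L14, 88.6 ± 1.74 CPM in L15, 88.2 ± 6.31 CPM in L16, and 1.32 ± 0.363 CPM in the wild type (SD, n = 3 each). Summed over the 12 identifiers, it was 0.190 ± 0.128 CPM in L14, 0.334 ± 0.259 CPM in L15, 0.253 ± 0.155 CPM in L16, and 33.9 ± 10.5 CPM in the wild type. The wild type sum of the 12 was lowest, 21.9 CPM, in the deep replicate 3. The rule itself keeps the 2 sides apart.

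**Figure D2:**
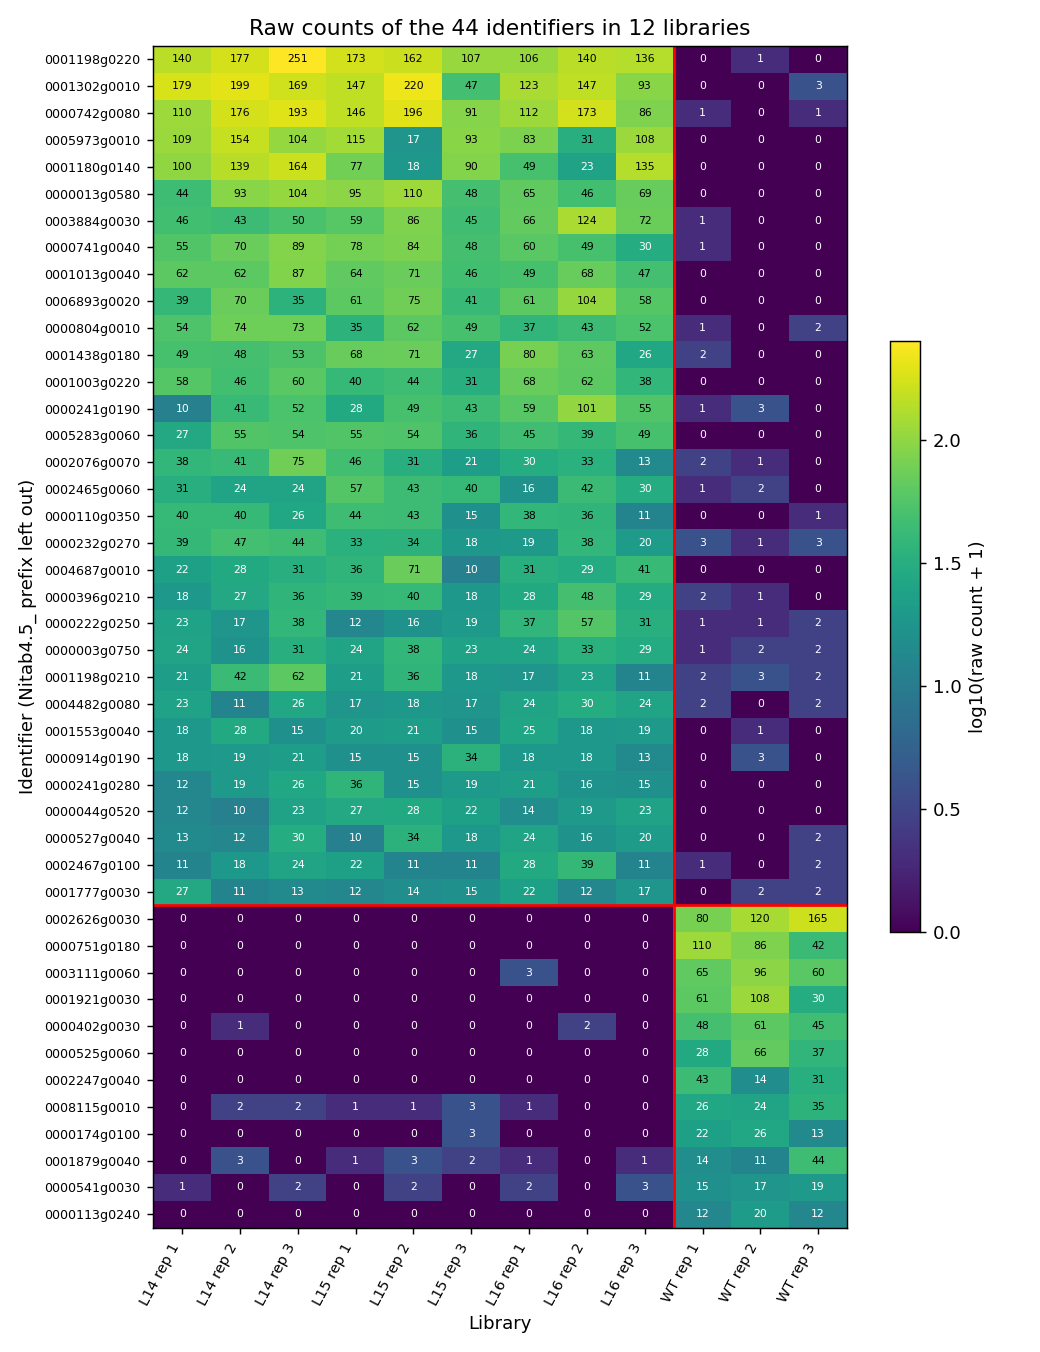
Raw counts of the 44 identifiers (rows, ordered by mean CPM within each group) in the 9 line libraries and the 3 wild type libraries (columns), with the count printed in each cell and the colour giving log10 of the count plus 1. The red lines part the lines from the wild type and the 32 identifiers present in the lines from the 12 present in the wild type, and Nitab4.5_0005973g0010 and Nitab4.5_0001180g0140 are both low in replicate 2 of L15 and replicate 2 of L16.

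The wild type had 0 counts in all 3 libraries for 10 of the 32 identifiers. For the other 22, the highest wild type count was 1 for 6 identifiers, 2 for 11, and 3 for 5. Each wild type library detected between 12 and 15 of the 32 with at least 1 count, and every line library detected all 32, as the rule requires. Over the whole wild type, 3 counts correspond to 0.0558 CPM, and this floor was used for the fold differences of the identifiers at 0. These differences, and the intervals of ratios given below, cover counting error only. The rule chose the identifiers on these same counts, which tends to make the differences too large. An interval that lies above 1 follows from the rule and is not a result.

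Nitab4.5_0005973g0010 and Nitab4.5_0001180g0140 were the most abundant of the 10 identifiers without any wild type count. Nitab4.5_0005973g0010 had 109, 154, and 104 counts in L14, 115, 17, and 93 counts in L15, 83, 31, and 108 counts in L16, and 0, 0, and 0 counts in the wild type. Nitab4.5_0001180g0140 had 100, 139, and 164 counts in L14, 77, 18, and 90 counts in L15, 49, 23, and 135 counts in L16, and 0, 0, and 0 counts in the wild type. Both were low in the same libraries, replicate 2 of L15 and replicate 2 of L16. The summed level of the 32 in these libraries, 86.7 and 94.6 CPM, lay within the range of the line libraries, 82.0 to 102 CPM. Pooled over libraries, the lines were at least 90.5-fold higher than the wild type for Nitab4.5_0005973g0010 and at least 88.4-fold higher for Nitab4.5_0001180g0140. Their log2 CPM followed each other across the 9 line libraries (Pearson's r = 0.931 across these libraries, and 0.924 after the line means were taken out), and the count of the second was between 0.590 and 1.58 times that of the first. Of the 496 pairs among the 32 identifiers, this was the only 1 with r above 0.9 before the line means were taken out. The median r over the pairs was -0.02. Nitab4.5_0000110g0350 and Nitab4.5_0001438g0180 had r = 0.884, and 0.943 after the line means were taken out. For Nitab4.5_0000914g0190 and Nitab4.5_0004687g0010 these values were -0.880 and -0.901. All points share the libraries and their depth, and these pairs were picked for their correlation, so r is a description. The names place Nitab4.5_0005973g0010 and Nitab4.5_0001180g0140 on different scaffold numbers.

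The next 4 identifiers of this kind were more even across the lines. Nitab4.5_0000013g0580 had 44, 93, and 104 counts in L14, 95, 110, and 48 counts in L15, 65, 46, and 69 counts in L16, and 0 in each wild type library, at least 74.9-fold higher in the lines. Nitab4.5_0001013g0040 had 62, 62, and 87 counts in L14, 64, 71, and 46 counts in L15, 49, 68, and 47 counts in L16, and 0 in each wild type library, at least 61.8-fold higher. It was the steadiest of the 32, with a highest CPM only 1.57 times the lowest among the line libraries. Nitab4.5_0006893g0020 had 39, 70, and 35 counts in L14, 61, 75, and 41 counts in L15, 61, 104, and 58 counts in L16, and 0 in each wild type library, at least 60.5-fold higher. Nitab4.5_0001003g0220 had 58, 46, and 60 counts in L14, 40, 44, and 31 counts in L15, 68, 62, and 38 counts in L16, and 0 in each wild type library, at least 49.7-fold higher. The libraries of the 3 lines overlapped for all 4, apart from those of L14 and L15 for Nitab4.5_0001003g0220, where L14 was higher in CPM.

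The other 4 at 0 in the wild type were lower. Nitab4.5_0005283g0060 had from 27 to 55 counts in the lines (median 49), at least 46.0-fold above the wild type. Nitab4.5_0004687g0010 had from 10 to 71 (median 31), at least 33.2-fold higher, and its lowest and highest counts were both from L15. Nitab4.5_0000241g0280 had from 12 to 36 (median 19) and Nitab4.5_0000044g0520 from 10 to 28 (median 22), at least 19.9-fold and 19.8-fold higher.

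The 3 most abundant identifiers of all had a few wild type counts. Nitab4.5_0001198g0220 had 140, 177, and 251 counts in L14, 173, 162, and 107 counts in L15, 106, 140, and 136 counts in L16, and 0, 1, and 0 counts in the wild type. Its mean was 10.1 ± 0.851 CPM in L14, 8.29 ± 0.651 CPM in L15, and 7.31 ± 0.865 CPM in L16, against 0.0202 ± 0.0349 CPM in the wild type (SD, n = 3 each), a pooled ratio of 464 (95% interval of the counts 83.2 to 18345). Its lowest line count, 106, stood against a highest wild type count of 1. Nitab4.5_0001302g0010 had 179, 199, and 169 counts in L14, 147, 220, and 47 counts in L15, 123, 147, and 93 counts in L16, and 0, 0, and 3 counts in the wild type, a ratio of 147 (50.2 to 714). Nitab4.5_0000742g0080 had 110, 176, and 193 counts in L14, 146, 196, and 91 counts in L15, 112, 173, and 86 counts in L16, and 1, 0, and 1 counts in the wild type, a ratio of 214 (59.1 to 1768). For all 3, the mean was highest in L14 and lowest in L16, with overlapping libraries for the last 2. For Nitab4.5_0001198g0220 the libraries of L15 and L16 overlapped in CPM, and those of L14 lay above both.

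**Figure D3:**
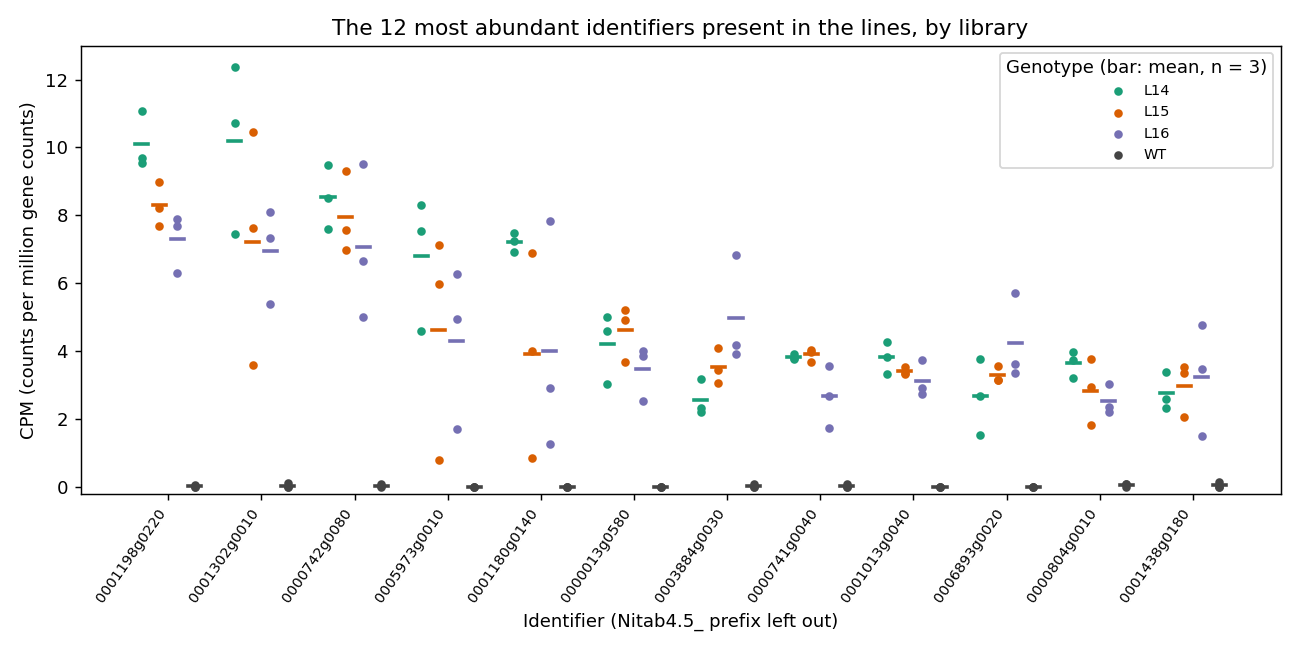
CPM in each library (points) and the mean of 3 libraries (bars) for the 12 identifiers present in the lines with the highest mean CPM, with L14, L15, L16, and the wild type side by side. Wild type points lie on or next to 0 for every identifier, and Nitab4.5_0005973g0010 and Nitab4.5_0001180g0140 each have 1 low library in L15 and 1 in L16.

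The other 4 of the 12 most abundant had between 1 and 3 wild type counts in all. Nitab4.5_0003884g0030 had 46, 43, and 50 counts in L14, 59, 86, and 45 counts in L15, 66, 124, and 72 counts in L16, and 1, 0, and 0 counts in the wild type, a ratio of 197 (35.2 to 7796). Every L16 library of this identifier was higher in CPM than every L14 library. Nitab4.5_0000741g0040 had 55, 70, and 89 counts in L14, 78, 84, and 48 counts in L15, 60, 49, and 30 counts in L16, and 1, 0, and 0 counts in the wild type, a ratio of 188 (33.6 to 7427). For this identifier L16 was lower than the other lines, with 2.67 ± 0.916 CPM beside 3.83 ± 0.0827 CPM in L14 and 3.91 ± 0.196 CPM in L15 (SD, n = 3 each). Nitab4.5_0000804g0010 had from 35 to 74 counts in the lines (median 52) and 1, 0, and 2 counts in the wild type, a ratio of 53.2 (18.1 to 259). Nitab4.5_0001438g0180 had from 26 to 80 counts in the lines (median 53) and 2, 0, and 0 counts in the wild type, a ratio of 80.9 (22.3 to 670).

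The remaining 15 identifiers had mean levels between 0.937 and 2.73 CPM in the lines, and they fell into sets by the line in which the mean was highest. The mean was highest in L16 for 7 of them: Nitab4.5_0000241g0190 with from 10 to 101 counts in the lines (median 49), Nitab4.5_0000396g0210 with from 18 to 48 (median 29), Nitab4.5_0000222g0250 with from 12 to 57 (median 23), Nitab4.5_0000003g0750 with from 16 to 38 (median 24), Nitab4.5_0004482g0080 with from 11 to 30 (median 23), Nitab4.5_0001553g0040 with from 15 to 28 (median 19), and Nitab4.5_0002467g0100 with from 11 to 39 (median 18). Each of these 7 had between 1 and 5 counts over the 3 wild type libraries. The mean was highest in L14 for 5: Nitab4.5_0002076g0070 with from 13 to 75 counts (median 33), Nitab4.5_0000110g0350 with from 11 to 44 (median 38), Nitab4.5_0000232g0270 with from 18 to 47 (median 34), Nitab4.5_0001198g0210 with from 11 to 62 (median 21), and Nitab4.5_0001777g0030 with from 11 to 27 (median 14). Nitab4.5_0000232g0270 and Nitab4.5_0001198g0210 had the most wild type counts of the 32, with 7 each. The mean was highest in L15 for 3: Nitab4.5_0002465g0060 with from 16 to 57 counts (median 31), Nitab4.5_0000914g0190 with from 13 to 34 (median 18), and Nitab4.5_0000527g0040 with from 10 to 34 (median 18). The smallest pooled ratios of the 32 were those of Nitab4.5_0001777g0030, 11.9 (4.56 to 44.3), and Nitab4.5_0001198g0210, 12.0 (5.72 to 30.0).

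The rule did not compare the lines with each other, and the differences among them were tested. It did require at least 10 counts in every line library, so an identifier below that in any line could not be among the 32. This limits the differences between lines that could be found. In edgeR's quasi-likelihood test with Benjamini-Hochberg adjustment over 18823 identifiers, 0 of the 32 differed between L15 and L14, where 0.0159% of all tested identifiers did, 0 between L16 and L14 (1.73% of all), and 0 between L16 and L15 (0.712% of all). At an unadjusted p under 0.05 there were 0, 4, and 1 of the 32, beside 3.69%, 14.8%, and 10.6% of all tested identifiers. DESeq2's Wald test called 0, 1, and 0. The log2 differences ranged from -0.85 to 0.92 between L15 and L14, from -1.11 to 1.24 between L16 and L14, and from -0.67 to 1.35 between L16 and L15, with medians of -0.05, 0.13, and -0.05 beside 0.00, -0.00, and 0.00 over all tested identifiers. Standard errors had medians of 0.42, 0.41, and 0.42, so differences of this size could not be resolved for most of the 32, and the lack of calls does not show that the lines were alike. The line with the highest mean was L14 for 12 identifiers, L15 for 9, and L16 for 11, and the line with the lowest was L14 for 12, L15 for 7, and L16 for 13.

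The 5 line differences with an unadjusted p under 0.05 were named after their values were seen. Nitab4.5_0003884g0030 averaged 4.98 ± 1.60 CPM in L16 and 2.57 ± 0.533 CPM in L14 (SD, n = 3 each), a log2 difference of 1.02 (SE 0.30, adjusted p = 0.105 from edgeR's quasi-likelihood test). DESeq2's Wald test put its adjusted p at 0.0390, the lowest of 17 alternatives, of which the highest was 0.336. Nitab4.5_0000241g0190 averaged 4.09 ± 1.28 CPM in L16 and 1.73 ± 0.902 CPM in L14, a log2 difference of 1.24 (SE 0.46, adjusted p = 0.208 from the edgeR test). Nitab4.5_0001198g0210 averaged 0.972 ± 0.315 CPM in L16 and 2.15 ± 0.649 CPM in L14, a log2 difference of -1.11 (SE 0.41, adjusted p = 0.204 from the edgeR test). It was the only one of these with the lower mean in L16. Nitab4.5_0006893g0020 differed by 0.73 between L16 and L14 (SE 0.33, adjusted p = 0.321 from the edgeR test). Nitab4.5_0000222g0250 averaged 2.38 ± 0.684 CPM in L16 and 0.947 ± 0.448 CPM in L15, a log2 difference of 1.35 (SE 0.43, adjusted p = 0.221 from the edgeR test).

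One by one, the 32 were more uneven across the 9 line libraries than most identifiers read there. The highest CPM was 3.12 times the lowest at the median, and up to 10.3 times in Nitab4.5_0005973g0010, while the median over the 14627 identifiers with at least 10 counts in every line library was 1.91 times. Those identifiers were also more abundant, and at lower counts the counting error alone is larger.

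The 12 identifiers of the wild type made the opposite picture. The 9 line libraries had 0 counts for 6 of them, which together with the depth of these libraries puts the floor of 3 counts at 0.0186 CPM over all lines. For the other 6, the highest line count was 2 for 1 identifier and 3 for 5. Each line library detected between 1 and 4 of the 12, and every wild type library detected all 12, as the rule requires.

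The 6 identifiers without any line count covered a wide range of levels. Nitab4.5_0002626g0030, the most abundant of the 12, had 0 counts in each line library and 80, 120, and 165 counts in the wild type, so that the lines were at least 365-fold lower. Its wild type level was steady, with a highest CPM of 1.17 times the lowest. Nitab4.5_0000751g0180 had 0 in the lines and 110, 86, and 42 counts in the wild type, at least 238-fold lower in the lines, and Nitab4.5_0001921g0030 had 0 in the lines and 61, 108, and 30 counts in the wild type, at least 199-fold lower. Both were lowest in wild type replicate 3, although it was the deepest library, and their highest wild type CPM was 4.95 and 5.30 times the lowest. Nitab4.5_0000525g0060 had 0 in the lines and 28, 66, and 37 counts in the wild type, at least 131-fold lower. Nitab4.5_0002247g0040 had 0 in the lines and 43, 14, and 31 counts in the wild type, at least 88.0-fold lower. Nitab4.5_0000113g0240 had 0 in the lines and 12, 20, and 12 counts in the wild type, at least 44.0-fold lower, and was the least abundant of the 12.

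The other 6 had scattered counts in the lines. Nitab4.5_0003111g0060 had 3 counts in replicate 1 of L16, 0 in the other 8 line libraries, and 65, 96, and 60 counts in the wild type, a wild type to line ratio of 221 (95% interval of the counts 74.6 to 1080). Nitab4.5_0000402g0030 had 1 count in replicate 2 of L14, 2 in replicate 2 of L16, 0 in the other line libraries, and 48, 61, and 45 counts in the wild type, a ratio of 154 (51.7 to 755). Nitab4.5_0000174g0100 had 3 counts in replicate 3 of L15, 0 in the other line libraries, and 22, 26, and 13 counts in the wild type, a ratio of 61.0 (19.9 to 304). The last 3 were read in several line libraries. Nitab4.5_0008115g0010 had 10 counts over the lines, in 6 of the 9 libraries, and 26, 24, and 35 counts in the wild type, a ratio of 25.5 (13.2 to 55.1). Nitab4.5_0001879g0040 had 11 counts over the lines and 14, 11, and 44 counts in the wild type, a ratio of 18.8 (9.89 to 39.4), and Nitab4.5_0000541g0030 had 10 counts over the lines and 15, 17, and 19 counts in the wild type, the lowest ratio of the 12, with an interval of 7.68 to 33.8. With at most 3 counts in a library, the lines were not compared with each other at this level. Of the 12, 10 passed the filter on low counts for the tests, and Nitab4.5_0000113g0240 and Nitab4.5_0000174g0100 did not.

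The limits of 10 and 3 counts cut through a continuous range. Among the 32, the lowest line count was exactly 10 for 4 identifiers and the highest wild type count exactly 3 for 5. Nitab4.5_0000527g0040 stood just inside, with 10 counts in replicate 1 of L15 and a highest wild type count of 2. Just outside stood Nitab4.5_0000468g0130, with from 9 to 20 counts in the lines and 2, 1, and 0 counts in the wild type, and Nitab4.5_0002897g0020, with from 46 to 156 counts in the lines and 2, 4, and 0 counts in the wild type. The second was read more often in the lines than most of the 32 and failed by 1 wild type count. In the other direction, Nitab4.5_0001879g0040 stood just inside with 11 counts in wild type replicate 2. Just outside stood Nitab4.5_0000272g0030, with at most 2 counts in a line library and 10, 9, and 18 counts in the wild type, and Nitab4.5_0004373g0050, with 4 counts in replicate 3 of L14, 0 in the other line libraries, and 42, 44, and 84 counts in the wild type. The limits are on raw counts, so the CPM they stand for depends on the depth of each library. Without wild type replicate 3 the rule gave 53 identifiers present in the lines in place of 32, and with counts scaled to the smallest library it gave 21, of which 18 were among the 32.

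The rule did not use position, and the identifier names carry some. A name such as Nitab4.5_0001198g0210 holds a scaffold number, 0001198, and a gene number, 0210, that rises along it. The 44 identifiers lay on 42 of the 3300 scaffold numbers, and 40 of them were alone there. No scaffold number held identifiers of both directions. Nitab4.5_0001198g0210 and Nitab4.5_0001198g0220 were next to each other among the 37 identifiers of their scaffold number. Nitab4.5_0000241g0190 and Nitab4.5_0000241g0280 were parted by 8 others among 28. Gene number 0010 was carried by 5 of the 44 (11.4%), against 9.29% of all identifiers. Distances in bases and strands were not used here.

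The nearest listed identifiers on each side of the 32, which the rule had not chosen, were higher in the lines more often than the tested identifiers as a whole. Of 55 such neighbours, 34 passed the filter, and 15 of these (44.1%) were higher in the lines and 2 lower in edgeR's quasi-likelihood test of the mean of the lines minus the wild type. Over all 18823 tested identifiers, 13.6% were higher and 13.2% lower. The median log2 fold change of the 34 was 0.58, beside 0.01 over all, and it was 0.58 as well with the 2 neighbours that had no wild type count set at their bounds. Of the 25 identifiers with a tested neighbour, 13 had at least 1 that was higher. The same share was not computed for other identifiers, so this count has no background. The neighbours were tested on the libraries that chose the 32, and no test was made of the list. Some, such as the 2 without a wild type count, passed the filter only through the line libraries where they were high. Without the filter, 17 of 47 (36.2%) were higher and 2 lower, with 10.2% of all tested identifiers higher. Leaving out scaffold number 0001198, 13 of 32 tested neighbours were higher. Over 16 alternatives, between 11 and 17 neighbours were higher (from 29.7% to 44.1%, beside 8.95% to 15.17% of all tested identifiers) and 2 or 3 were lower.

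The higher share was found at the nearest position and was smaller farther away. It was 44.1% of 34 tested at 1 identifier from the nearest of the 32, 21.4% of 28 at 2 identifiers, 16.7% of 66 at 3 to 5, 19.5% of 82 at 6 to 10, and 12.7% of 189 beyond 10. The lower share was 5.88%, 14.29%, 4.55%, 12.2%, and 16.9% at these distances. Around the 12 identifiers present in the wild type, 11 of 20 nearest neighbours were tested, and 2 were higher and 0 lower in the lines (edgeR's quasi-likelihood test). At an unadjusted p under 0.05 these were 4 and 1, where 19.8% of all tested identifiers were higher and 19.1% lower. DESeq2's Wald test gave 4 higher and 0 lower among 13, with 11.4% of all tested identifiers higher. An identifier high only in the wild type could pass the filter on low counts only through the 3 wild type libraries. One high in the lines had more libraries through which to pass. The lower neighbours of the 12 can therefore not be set against the higher neighbours of the 32. With no filter, the edgeR test called 3 of 19 neighbours of the 12 higher and 2 lower.

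**Figure D4:**
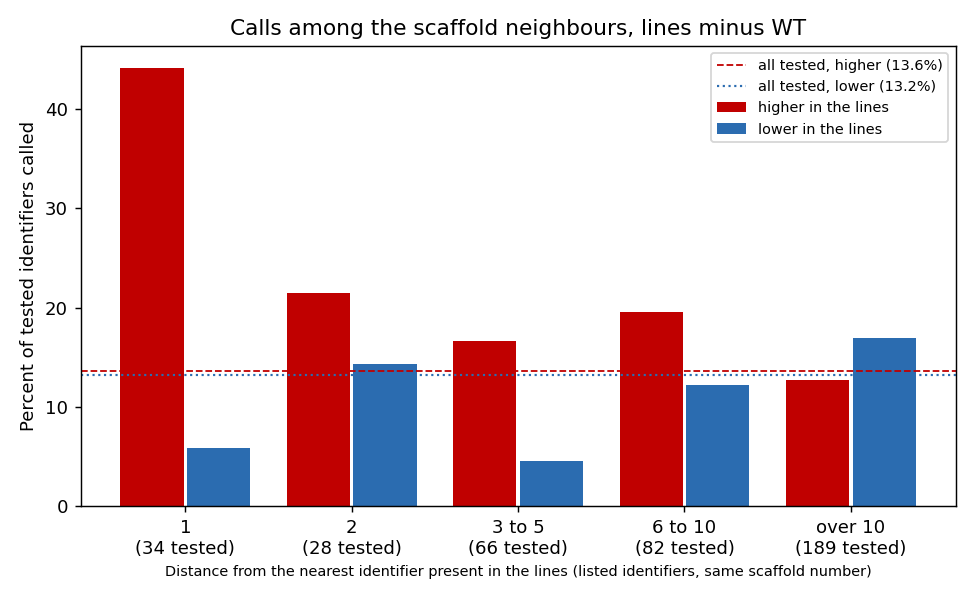
Percent of tested identifiers called higher (red) or lower (blue) in the lines than in the wild type, by their distance, in listed identifiers, from the nearest of the 32 identifiers present in the lines, with the number tested under each pair of bars. The dashed and dotted lines give the 13.6% and 13.2% of all tested identifiers, and the red bar stands well above its line only at distance 1.

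Some of these neighbours had patterns close to that of the identifier beside them. Nitab4.5_0005283g0070, next to Nitab4.5_0005283g0060, had 5, 10, and 25 counts in L14, 5, 20, and 3 counts in L15, 5, 17, and 17 counts in L16, and 0 in each wild type library, at least 11.9-fold higher in the lines. Nitab4.5_0000741g0050, next to Nitab4.5_0000741g0040, had from 1 to 21 counts in the lines and 0 in each wild type library, at least 9.89-fold higher. Both were kept from the rule by line libraries with under 10 counts, and both passed the filter on low counts only through line libraries. Nitab4.5_0006893g0030, next to Nitab4.5_0006893g0020, had from 258 to 458 counts in the lines and 63, 77, and 65 counts in the wild type, a log2 fold change of 2.23 (SE 0.17, adjusted p = 2.19e-07 from edgeR's quasi-likelihood test). Both neighbours of Nitab4.5_0003884g0030 were higher in the lines, Nitab4.5_0003884g0020 by 2.49 and Nitab4.5_0003884g0040 by 0.59 on the log2 scale, as were both neighbours of Nitab4.5_0000232g0270, Nitab4.5_0000232g0260 by 0.75 and Nitab4.5_0000232g0280 by 1.82. The 13 higher neighbours with any wild type count had a median log2 fold change of 1.18 (0.56 to 4.47). In 11 of all 15 every line library lay above every wild type library in CPM. These 15 had been called higher on the same libraries, so both values are descriptions.

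Other neighbours did not move the same way. Nitab4.5_0000241g0180, next to Nitab4.5_0000241g0190, was lower in the lines, with from 0 to 6 counts in the lines and 12, 12, and 16 counts in the wild type (log2 fold change -3.46, SE 0.76, adjusted p = 0.00356 from edgeR's quasi-likelihood test), while Nitab4.5_0000241g0200 on the other side was higher, by 1.27. Nitab4.5_0001180g0130, beside Nitab4.5_0001180g0140, was also lower, with from 1005 to 2116 counts in the lines and 1590, 2313, and 2667 counts in the wild type (log2 fold change -0.72, SE 0.12). Beside Nitab4.5_0000013g0580, Nitab4.5_0000013g0570 did not pass the test (log2 fold change -0.38, adjusted p = 0.0983 from the edgeR test). Next to Nitab4.5_0003111g0060, which was present in the wild type, the untested Nitab4.5_0003111g0070 had from 2 to 12 counts in the lines and 0 in each wild type library. By contrast, the untested Nitab4.5_0001921g0020 went the same way as Nitab4.5_0001921g0030 beside it, which was also present in the wild type. It had 0 counts in the lines and 3, 7, and 10 counts in the wild type. Identifiers that lie next to each other can thus share a direction or differ in it. The strand setting of the counting is not given in the sources used here, so reads of overlapping neighbours cannot be told apart.

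Scaffold number 0001198, which carries the adjacent Nitab4.5_0001198g0210 and Nitab4.5_0001198g0220, had the largest number of higher identifiers among the 42 scaffold numbers that held any of the 44. Of its 37 listed identifiers, 18 besides these 2 were tested, and 12 (66.7%) were higher and 1 lower in the lines in edgeR's quasi-likelihood test. By share, number 0003884 with 3 of 4 tested (75.0%) and number 0001777 with 1 of 1 stood above it. Of the 12, 6 were higher by more than 2 on the log2 scale, a size reached by 2.01% of all tested identifiers. They stood at gene numbers 0110, 0120, 0150, 0190, 0200, and 0330, and not in 1 unbroken run. Nitab4.5_0001198g0110 averaged 37.6 ± 5.55 CPM in the lines (SD, n = 9) and 0.643 ± 0.192 CPM in the wild type (SD, n = 3), a log2 fold change of 5.72 (SE 0.23). Nitab4.5_0001198g0330 averaged 60.8 ± 7.96 CPM in the lines and 1.96 ± 0.542 CPM in the wild type, a log2 fold change of 4.90 (SE 0.19). Nitab4.5_0001198g0150 averaged 63.2 ± 13.4 CPM in the lines and 2.63 ± 0.404 CPM in the wild type, a log2 fold change of 4.46 (SE 0.17). In all 3 the libraries of lines and wild type were far apart. Nitab4.5_0001198g0200, next to the 2 chosen identifiers, had a log2 fold change of 4.47 (SE 0.33), Nitab4.5_0001198g0190 one of 2.53 (SE 0.75), and Nitab4.5_0001198g0120 one of 2.25 (SE 0.15). The other 6 of the 12 were higher by less. Nitab4.5_0001198g0090 was higher by 1.94 (SE 0.20), and gene numbers 0010, 0020, 0030, and 0100 by 0.91, 1.36, 1.26, and 1.26. Nitab4.5_0001198g0230, directly after the 2, was higher by 0.56 (SE 0.12). Among those not called higher, Nitab4.5_0001198g0060 did not pass the test (-0.48, SE 0.21). Nitab4.5_0001198g0320 was lower (-1.48, SE 0.34), with 1.23 ± 0.550 CPM in the lines and 3.12 ± 1.12 CPM in the wild type.

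**Figure D5:**
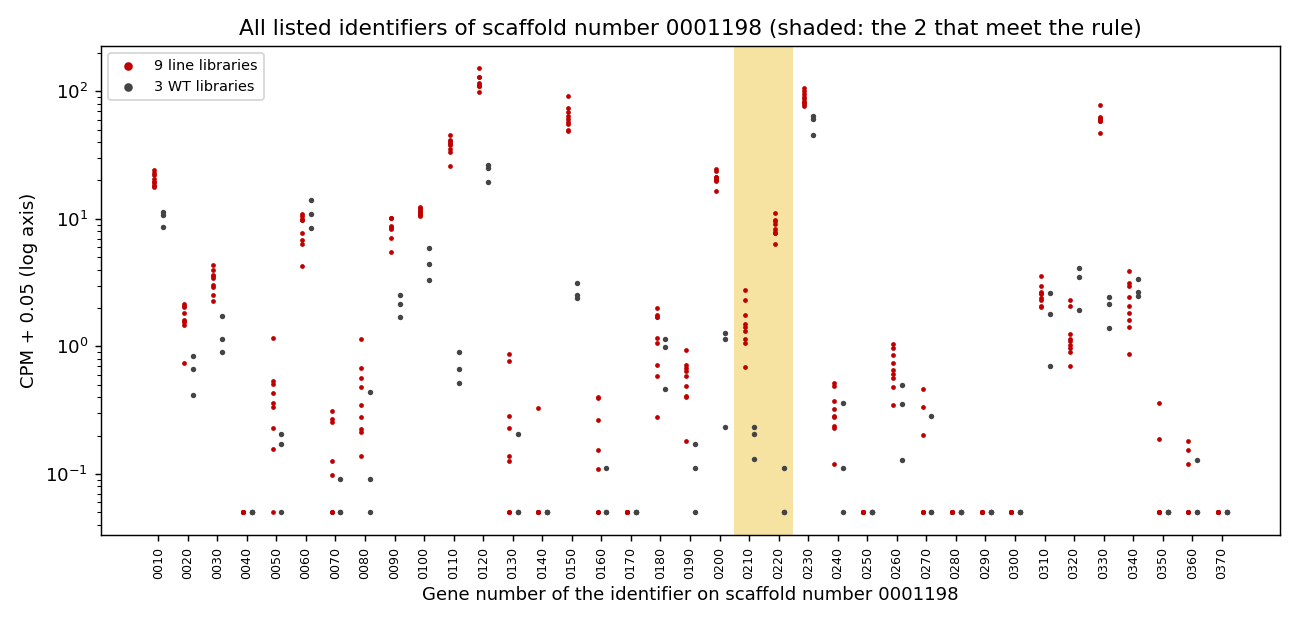
CPM plus 0.05 (log axis) in the 9 line libraries (red, left) and the 3 wild type libraries (grey, right) for all 37 listed identifiers of scaffold number 0001198, in the order of their gene numbers, with Nitab4.5_0001198g0210 and Nitab4.5_0001198g0220 shaded. Identifiers with red points far above the grey ones, such as gene numbers 0110, 0150, 0200, and 0330, alternate with others whose points lie closer or overlap.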

How the data were processed

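RNA of leaves was sequenced in 12 libraries, 3 per genotype. Per the submitters' notes and methods, STAR aligned the reads to the NiTAB 4.5 reference, and the deposited values are raw counts of reads on each identifier, not normalized by the authors. The counting program and its strand setting are not given in the sources used here, and no column of another sample was present. The 5 summary lines and 99 spike-in sequences were left out of library sizes and tests. CPM were computed from the gene counts of a library, which ranged from 12887911 to 24343174.

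The rule (at least 10 against at most 3 counts) was applied to the raw counts. The identifiers, lists and tests were chosen with earlier results of these data known. The rule for names covered the 12 most abundant identifiers in each direction, those sharing a scaffold number, those called between lines, and those nearest the limits. The other members are named because each was to be described across the lines. Neighbours and other identifiers of a scaffold number were named after their values were seen.

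Tests used edgeR 4.0.16 in R 4.3.3 (quasi-likelihood test, TMM scaling, filterByExpr with a minimum of 10 counts, 1 model of 12 libraries, Benjamini-Hochberg threshold 0.05), checked on simulated counts. Standard errors are the absolute log2 fold change over the square root of F. DESeq2 1.42.0 was an alternative. Intervals of ratios are exact binomial (95%), on the counts that the rule had used. P-values measure the spread between these replicates.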

Additional observations from a re-analysis of the deposited data

How the results depend on the processing

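The numbers of identifiers follow the limits. With a minimum of 20 counts, 12 identifiers were present in the lines and 7 in the wild type. With a minimum of 5 they were 64 and 21, and with 0 counts required on the other side 10 and 6. With counts scaled to the smallest library, 21 and 14 met the rule, of which 18 and 9 were among the 32 and 12. Leaving out 1 library at a time gave from 32 to 53 identifiers present in the lines, the most without wild type replicate 3, and from 12 to 17 present in the wild type. DESeq2's Wald test called 1 of the 32 between L16 and L14 (Nitab4.5_0003884g0030, log2 difference 1.03), and every other alternative called 0 between any 2 lines.

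Nearest neighbours of all 44 called between the lines and the wild type numbered 19 of 45 tested (42.2%), and from 15 to 22 with 1 library left out. The share with 1 library left out was from 30.6% to 45.7%, beside 17.6% to 29.0% of all tested identifiers. With the 2 nearest on each side, 30 of 80 tested (37.5%) were called, and with all identifiers on the scaffold numbers, an alternative chosen after seeing the data, 150 of 504 (29.8%), beside 26.9% of all tested identifiers. The replicate numbers were not taken to pair the libraries, since not every same-numbered pair had a correlation above 0.1. Same-numbered libraries of different genotypes had correlations of their deviations from -0.0499 to 0.239, of which 7 of 18 were above 0.1. Between lines, the 6 pairs of replicates 1 and 3 had correlations from 0.151 to 0.239, and 23 of 36 libraries and genotypes matched best with their own number, a hint from the data and not from the design. With the replicate block, 0 of the 32 were called between any 2 lines. Between the lines and the wild type, 22 of 45 tested neighbours (48.9%) were called with the block, beside 30.1% of all tested identifiers. The depth limits what can be seen at these levels: 3 counts correspond to between 0.123 and 0.233 CPM in a library.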
